A study of Mus musculus with 18 samples.

Results

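The BMP-SMAD response genes analysed here were 10 genes chosen by name from what is known of the pathway, with earlier results of these data known. They were *Bmp4*, *Id1*, *Id2*, *Id3*, *Id4*, *Smad6*, *Smad7*, *Bambi*, *Msx1* and *Msx2*, out of 35773 genes in the count tables. BMP ligands are secreted dimers that bring together type I and type II serine/threonine kinase receptors. The activated receptors phosphorylate SMAD1, SMAD5 and SMAD9, which enter the nucleus with SMAD4 and act on target genes. In mouse pluripotent cells BMP4 together with LIF supports self-renewal, and the ID proteins, which bind E-proteins and keep them from pairing with lineage factors, are its best known targets there, whereas in primed cells and in the postimplantation embryo BMP promotes mesoderm, germ cell and extraembryonic fates. The pathway also switches on its own brakes, the inhibitory SMADs (*Smad6*, *Smad7*) and the decoy receptor *Bambi*.

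The series held RNA-seq of 18 samples, 3 biological replicates in each of 6 groups of mouse pluripotent cells. All are given as wild type and labelled with the strain 129S2/SvPasCrl. The study's methods instead describe lines of mixed background, from males carrying reporter transgenes such as GOF-GFP. ESCs were naive embryonic stem cells in 2i/LIF, a medium with inhibitors of MEK and GSK3 plus LIF. AFSCs were primed-type cells derived from blastocysts in N2B27 with activin A and bFGF. ASCs were obtained by moving AFSCs into ABCL (activin A, BMP4, the GSK3 inhibitor CHIR99021 and LIF in N2B27) and keeping the colonies that were positive for a GOF-GFP reporter. ESC-ASCs were ESCs converted by passaging in ABCL, and the labels do not say which ESC line they came from. EpiLCs are epiblast-like cells made from ESCs and EpiSCs are epiblast stem cells, and their media are not given in the sources used here. ASCs and ESC-ASCs are the groups whose medium is stated to hold BMP4, those of ESCs and AFSCs are stated without it, and for EpiLCs and EpiSCs this is not known here. The move from AFSC to ASC also added CHIR99021 and LIF, took away bFGF and included a selection of colonies, and the move from ESC to ESC-ASC also added activin A and took away the MEK inhibitor, so BMP4 cannot be told apart from the rest of each conversion. As these were bulk samples, fewer cells expressing a gene and less RNA per cell cannot be told apart either.

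Each sample had 4961934 to 9906473 counts, except the ESC-ASC samples, which had 17813619 to 18071600, so that depth coincided with that group. The first replicates of ESC, ASC, EpiLC and AFSC stood apart from the others of their group, with a chi-square per degree of freedom of 21.5 to 100.1 over genes, against 1.65 to 11.8 between replicates 2 and 3. Without these 4 libraries the number of the 10 genes called changed in 1 of the 6 comparisons below, ASC against ESC, from 6 to 7. The naive markers (7 genes) summed to 3379 to 6686 normalized counts per kb in ESC, ASC and ESC-ASC samples and to 23.9 to 175 in EpiLC, AFSC and EpiSC samples, and the primed markers (7 genes) to 109.6 to 285.1 in the former and 1336 to 3211 in the latter groups. The core pluripotency markers (3 genes) lay between 6207 and 12730 in every sample. The trophoblast markers (9 genes) summed to 160.4 to 203.9 in ESCs, ASCs and ESC-ASCs and to at most 37.7 elsewhere, with *Tpbpa* at 0 in ESCs and ESC-ASCs and *Elf5* at 0 in ESC-ASCs. Similar sums hid a different make-up. *Ascl2* was at 140.8 in ESC-ASCs, 42.1 in ASCs and 14.2 in ESCs, and *Cdx2* at 0.37, 51.1 and 94.9. The mesoderm and fibroblast markers (8 genes) summed to 93.4 to 129.2 in ASCs and 92.0 to 129.6 in AFSCs, against 43.8 to 86.4 in ESCs and 70.0 to 80.5 in ESC-ASCs, where *Col3a1* and *Postn* were at 0. The endoderm markers (7 genes) stayed between 4.56 and 23.9 outside EpiSCs (68.0 to 69.2). The neural markers (5 genes) summed to 562.1 to 606.8 in ESCs and to between 49.3 and 213.2 elsewhere. The ESC sum was mostly *Tubb3* (579.7), and *Sox1* (2.59), *Map2* (0.84), *Pax6* (0.23) and *Neurog2* (0) were not highest in ESCs.

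On GRCm38 *Id1* spans chr2:152736251-152737410 (+), *Id2* chr12:25093801-25096092 (-), *Id3* chr4:136143497-136145755 (+) and *Id4* chr13:48261427-48264036 (+). *Smad6* spans chr9:63953076-64022059 (-), *Msx1* chr5:37820485-37824583 (-), *Msx2* chr13:53466884-53473074 (-) and *Bmp4* chr14:46383520-46390669 (-). The counts are of fragments on their exons, and the summed exon length runs from 1160 bp for *Id1*, the shortest, to 5040 bp for *Bambi*. The counting did not use strand. *Id4* shares 171 bp of exon with the antisense gene *A330033J07Rik*, which had 248 counts over the 18 samples against 801 for *Id4*, and *Bmp4* shares 89 bp with *Gm15217*, which had 7 counts against 1166, so fragments in those stretches cannot be assigned to either strand.

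RefSeq promoter windows (GRCm38.p6, 250 bases upstream of the annotated start) were at hand for 7 of the 10 genes. Overlap with exons of other genes was not checked, and 5 of these windows lay outside the annotated span of their own gene. Of them, *Id2*, *Id4* and *Smad6* are printed because they moved together, upward in the first conversion described below and downward in the second, and *Bmp4* because it rose in both. The windows are chr12:25096093-25096342 (-) for *Id2*, chr13:48260866-48261115 (+) for *Id4*, chr9:64022060-64022309 (-) for *Smad6* and chr14:46390670-46390919 (-) for *Bmp4*. Each reads 5′ to 3′ along the gene, and capitals mark GGCGCC or GGAGCC, GC-rich motifs known from BMP-SMAD binding, found on either strand.
Id2 promoter window: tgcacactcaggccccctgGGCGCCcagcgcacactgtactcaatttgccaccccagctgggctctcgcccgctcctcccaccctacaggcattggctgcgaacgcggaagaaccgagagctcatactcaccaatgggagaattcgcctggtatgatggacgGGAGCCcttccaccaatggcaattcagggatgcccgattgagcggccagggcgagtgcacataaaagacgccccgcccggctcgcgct
Id4 promoter window: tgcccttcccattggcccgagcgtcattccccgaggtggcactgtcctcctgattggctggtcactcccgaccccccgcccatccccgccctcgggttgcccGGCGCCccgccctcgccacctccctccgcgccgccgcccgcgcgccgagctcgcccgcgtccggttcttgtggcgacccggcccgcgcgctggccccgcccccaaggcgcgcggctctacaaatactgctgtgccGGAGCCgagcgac
Smad6 promoter window: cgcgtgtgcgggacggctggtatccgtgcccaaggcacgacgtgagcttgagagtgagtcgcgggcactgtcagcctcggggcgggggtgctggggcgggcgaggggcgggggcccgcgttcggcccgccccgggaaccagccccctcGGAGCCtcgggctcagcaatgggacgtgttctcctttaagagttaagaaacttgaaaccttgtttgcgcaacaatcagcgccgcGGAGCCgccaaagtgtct
Bmp4 promoter window: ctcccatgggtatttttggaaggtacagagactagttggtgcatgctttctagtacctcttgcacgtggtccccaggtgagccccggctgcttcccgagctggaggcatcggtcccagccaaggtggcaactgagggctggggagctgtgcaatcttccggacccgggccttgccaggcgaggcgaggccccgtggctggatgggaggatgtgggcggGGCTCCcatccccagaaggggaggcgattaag
GGCGCC stood once in the *Id2* and once in the *Id4* window and in none of the other 5, while 9.59% of all 32851 promoter windows hold it on either strand. GGAGCC was found in 6 of the 7 windows, with 2 matches each for *Smad6* and *Msx2* and none for *Msx1*, against 26.0% of all windows. The SMAD box GTCT was found in 5 of the 7 windows, all but those of *Id4* and *Msx1*, against 82.9% of all windows. GGCGCC is its own reverse complement, and by their letters none of the 3 motifs can overlap another. These matches describe the letters of the windows, and neither binding nor use of the motifs was measured.

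The move of AFSCs into ABCL asks which genes change as primed cells become ASCs. All 10 genes rose, by 2.32-fold (*Bambi*) to 22.7-fold (*Id4*), and *Msx2*, nearly silent in AFSCs, rose more. Of all 16901 genes tested, 22.7% were called higher in this comparison (adjusted p below 0.05 and a change over 2-fold) and 39.4% in either direction. The median log2 fold change of the 10 genes was 2.54, against 0.02 over all genes tested. Trophoblast markers moved with them, 6 of the 7 tested being higher and 1 lower, as did the naive markers, all 7 of which were higher, and the endoderm markers, with 3 of 4 tested higher and 0 lower. All 7 primed markers were lower, and the mesoderm and fibroblast markers were divided, 3 higher and 3 lower. The part of these in the changes was not tested.

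The ligand gene *Bmp4* was measured at 14.5, 9.89 and 14.4 normalized counts per kb in the AFSC samples (counts divided by DESeq2 size factors and by exon length) and at 64.5, 49.0 and 53.3 in the ASC samples. Every ASC sample lay above every AFSC sample. The log2 fold change was 2.07 ± 0.22 (SE, n = 3 per group), with an adjusted p of 1.2e-07 in edgeR's quasi-likelihood test after adjustment by Benjamini and Hochberg over all genes, the test behind all adjusted p-values that follow.

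Among the ID genes, *Id1* stood at 38.3, 25.9 and 30.4 normalized counts per kb in AFSCs and at 222.3, 396.6 and 377.3 in ASCs. Its lowest ASC sample, the first replicate, was still well above every AFSC sample, and the log2 fold change was 3.37 ± 0.28 (adjusted p = 6.02e-09 by edgeR). *Id3* behaved alike, with 86.5, 95.7 and 98.3 in AFSCs and 347.6, 603.0 and 556.1 in ASCs, a log2 fold change of 2.40 ± 0.20. *Id2* changed least of the family, from 79.5, 79.3 and 58.7 to 198.8, 212.6 and 238.4, a log2 fold change of 1.56 ± 0.16. *Id4* changed most. Its AFSC levels of 3.25, 3.49 and 2.50 came from 4 to 5 counts a sample, its ASC levels were 68.9, 67.6 and 79.3, and the log2 fold change was 4.50 ± 0.28 (adjusted p = 8.6e-11 by edgeR). In absolute level *Id3* and *Id1* led the family in ASCs, at 502.2 ± 135.9 and 332.0 ± 95.5 (SD, n = 3), and *Id4* was its lowest member at 71.9 ± 6.4.

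The inhibitory SMADs, which block receptor access and signalling by the receptor-activated SMADs, rose as well. *Smad6*, the one more selective for BMP signalling, went from 6.30, 9.03 and 9.05 normalized counts per kb in AFSCs to 71.7, 92.0 and 101.6 in ASCs, a log2 fold change of 3.40 ± 0.23. *Smad7*, on chromosome 18 as is *Bambi*, also restrains activin and TGF-β signals and went from 74.2, 94.99 and 72.6 to 270.4, 294.0 and 301.8, a log2 fold change of 1.81 ± 0.13. Both sets of samples were separate for either gene, with adjusted p-values of 2.9e-10 and 4.5e-10 by edgeR. *Bambi*, a pseudoreceptor without a kinase domain, had the smallest change, from 13.1, 15.4 and 19.9 to 33.8, 43.7 and 37.6 (log2 fold change 1.21 ± 0.17, adjusted p = 4.7e-06 by edgeR).

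*Msx1* and *Msx2* encode homeobox repressors that answer BMP in many embryonic tissues. *Msx1* was at 3.91, 3.74 and 2.01 normalized counts per kb in AFSCs and at 20.5, 21.1 and 21.2 in ASCs, with an SD of 0.37 among them. *Msx2* was at 0.41, 0.35 and 0.95 in AFSCs, from 1 to 3 counts a sample, and at 28.6, 39.3 and 40.5 in ASCs. Over the summed counts, 5 in AFSCs and 332 in ASCs, the *Msx2* ratio was 61.0 with an exact 95% interval of 25.9 to 189, which covers counting error only. The edgeR log2 fold changes were 2.69 ± 0.31 for *Msx1* and 5.83 ± 0.44 for *Msx2*.

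**Figure D1:**
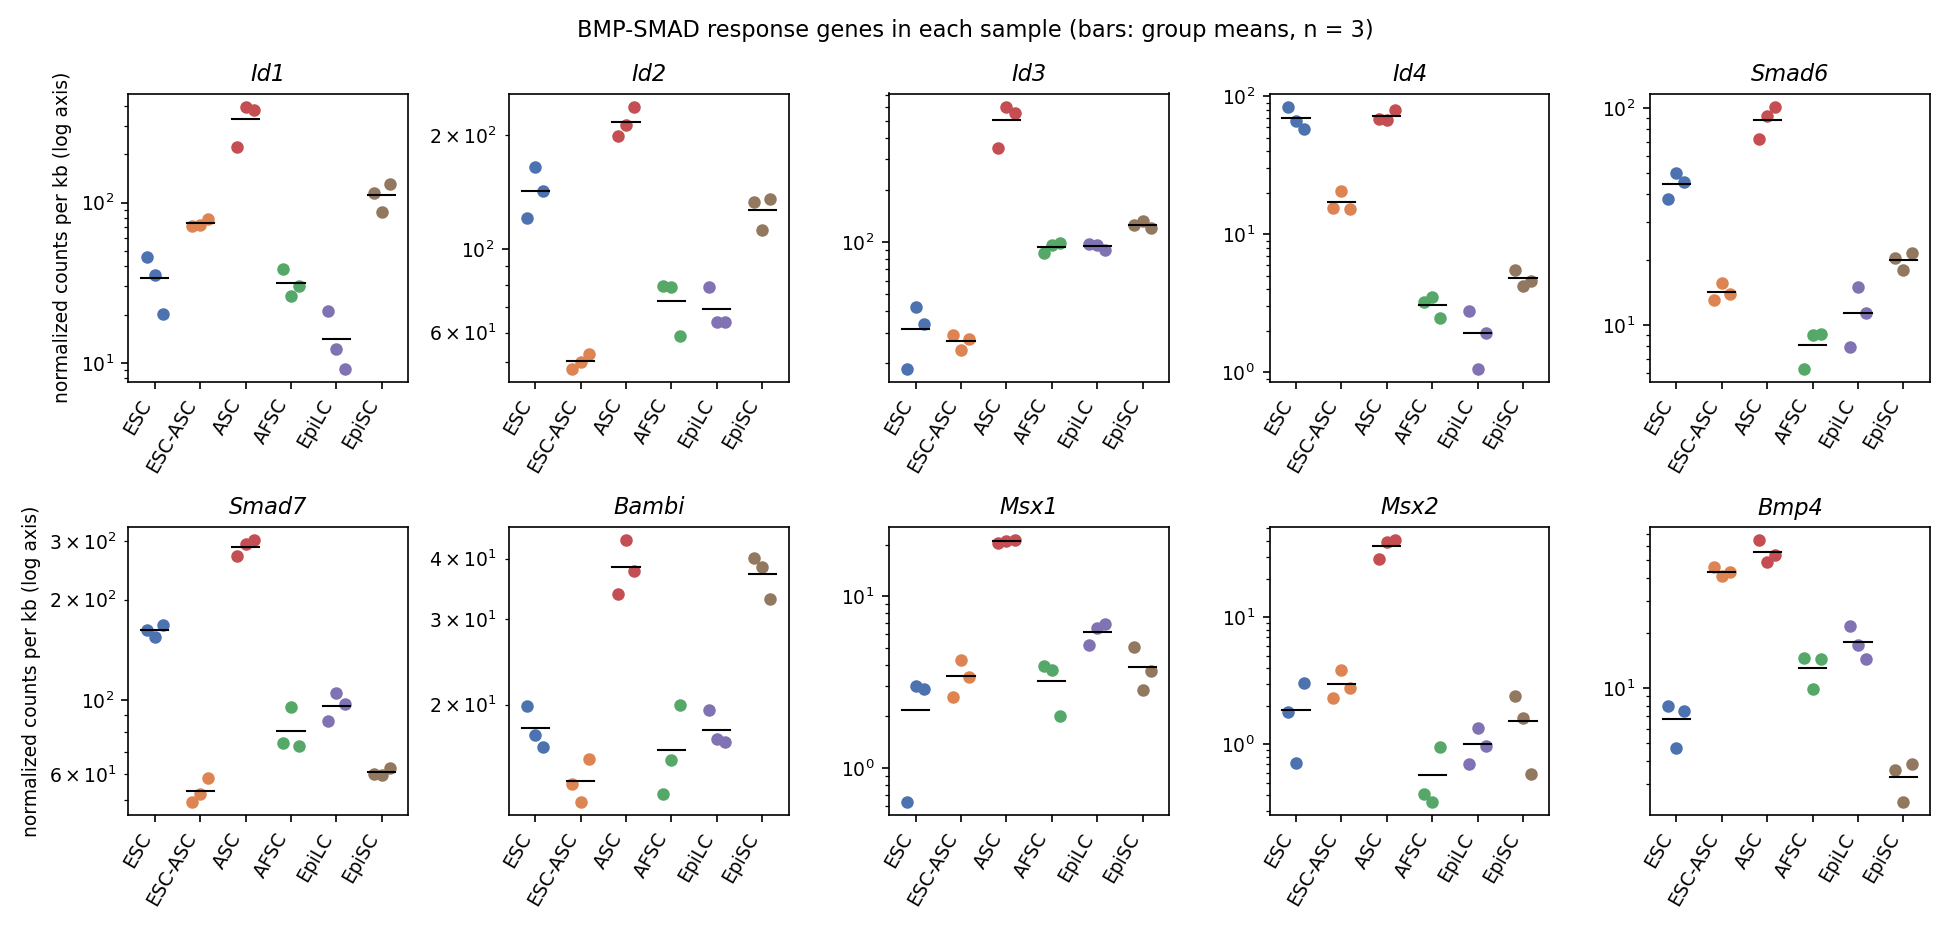
Normalized counts per kb (log axis, a scale of its own for each gene) of the 10 BMP-SMAD response genes in each of the 18 samples, by group, with points for samples and bars for group means (n = 3). In all 10 panels the ASC mean is the highest, and ESC-ASC samples reach the ASC range in none, coming closest for *Bmp4* (40.9 to 45.7 against 49.0 to 64.5).

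The move of ESCs into ABCL asks the same of naive cells. Here 2 of the 10 genes rose, *Bmp4* and *Id1*, 4 fell, *Id2*, *Id4*, *Smad6* and *Smad7*, and the other 4 passed no call. In this comparison 19.3% of all genes tested were called higher and 17.1% lower, 36.4% together. The median log2 fold change of the 10 genes was -0.33, against 0.03 over all genes tested. Of the trophoblast markers 2 of 7 tested were higher and 3 lower, and of the naive markers 0 were higher and 4 lower. Of the 6 mesoderm and fibroblast markers tested 4 were lower, with *Col3a1* at 0 in ESC-ASCs, and 1 higher, and of the 4 endoderm markers tested 2 were higher and 0 lower. Their part was not tested.

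*Bmp4* rose from 7.97, 4.71 and 7.52 normalized counts per kb in the ESC samples to 45.7, 40.9 and 43.0 in the ESC-ASC samples, a log2 fold change of 2.69 ± 0.24 (adjusted p = 2.2e-08 by edgeR). The levels in the ESC samples rest on 9 to 15 counts. *Id1* rose from 45.8, 35.1 and 20.2 to 71.0, 72.4 and 78.9, and the ESC samples, all below the ESC-ASC samples, spread more than 2-fold among themselves. Its log2 fold change was 1.17 ± 0.29 (adjusted p = 0.0017 by edgeR), and without the third ESC replicate it was 0.88 (adjusted p = 0.0195), under the 2-fold limit of a call.

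*Id4* was among the genes that fell, from 84.2, 65.9 and 57.8 normalized counts per kb in ESCs to 15.5, 20.6 and 15.1 in ESC-ASCs, a log2 fold change of -2.01 ± 0.20. *Smad6* went from 38.1, 50.1 and 45.6 to 13.1, 15.7 and 13.96 (log2 fold change -1.67 ± 0.20), with no ESC-ASC sample near any ESC sample. *Smad7* went from 162.0, 155.0 and 168.0 to 49.4, 52.2 and 58.5 (log2 fold change -1.61 ± 0.12), with no overlap between the groups. *Id2* went from 120.9, 165.0 and 142.3 to 48.2, 50.01 and 52.6 (log2 fold change -1.53 ± 0.16). Adjusted p-values of these falls by edgeR ran from 2.9e-09 for *Smad7* to 1.03e-06 for *Smad6*.

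The 4 genes without a call differed among themselves in how closely the data bound the change. *Id3* was at 18.7, 42.2 and 33.6 normalized counts per kb in ESCs and at 29.1, 24.0 and 27.8 in ESC-ASCs, ranges that overlap, and the 95% interval of its log2 fold change was -0.75 to 0.17. *Bambi* was at 16.4 to 19.9 in ESCs and 12.6 to 15.5 in ESC-ASCs, with an interval of -0.70 to -0.03 and an adjusted p of 0.074 by edgeR. For *Msx1* and *Msx2* the ESC samples held only 1 to 8 and 2 to 9 counts, and the intervals were wide, at -0.26 to 1.26 and -0.25 to 1.53, so that at this depth a 2-fold rise could not be told from no change.

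The difference between the conversions was tested as a contrast of its own, with disjoint samples in each conversion. It was positive, that is, ASC against AFSC exceeded ESC-ASC against ESC, for 9 of the 10 genes, against 24.4% of all genes tested in that direction (45.2% in either). *Id4* had the largest difference, 6.51 ± 0.34 on the log2 scale, followed by *Msx2* at 5.18 ± 0.76 and *Smad6* at 5.07 ± 0.31. *Bmp4* was the exception, with a difference of -0.61 ± 0.33 (95% interval -1.27 to 0.04, adjusted p = 0.13 by edgeR). Across both conversions 2 of the 10 genes were called higher in each, 4 in opposite directions and 4 higher in the first with no call in the second, and over all genes tested 6.23% were higher in each, 3.3% lower in each and 9.44% opposite.

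**Figure D2:**
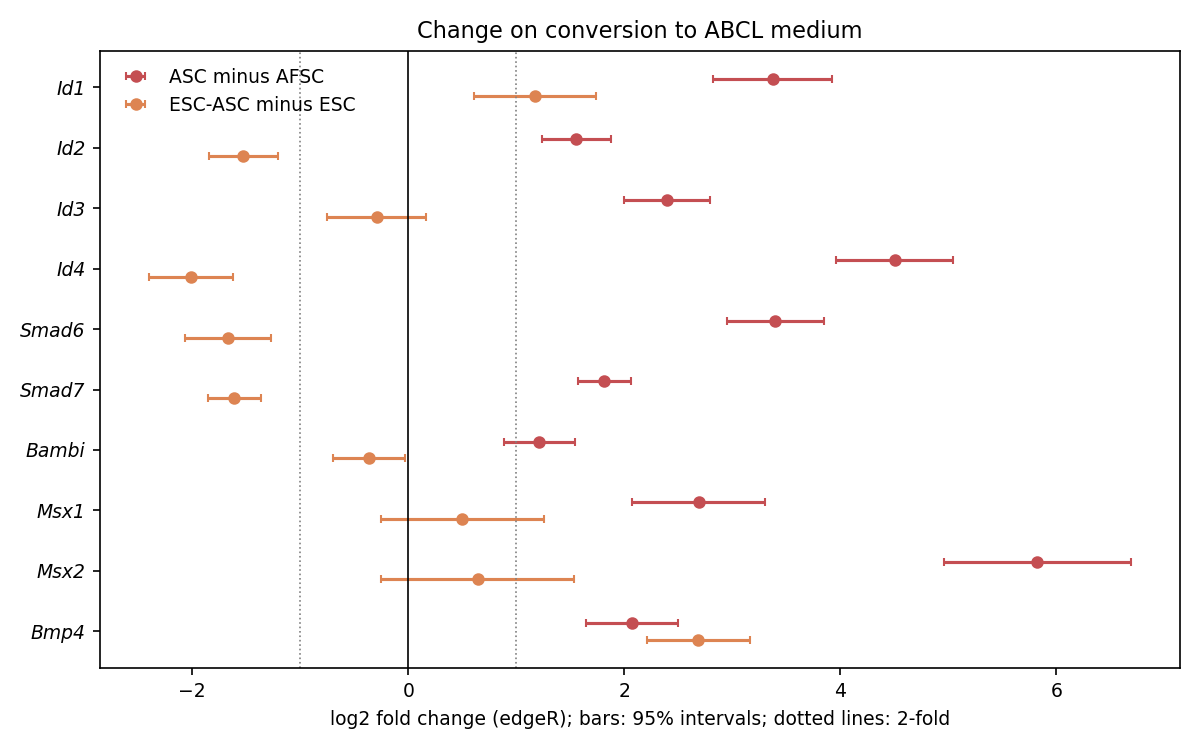
Log2 fold change of the 10 genes (x axis, edgeR) for ASC minus AFSC and for ESC-ASC minus ESC, with bars of 95% intervals and dotted lines at 2-fold. The red points all lie right of 1, from 1.21 for *Bambi* to 5.83 for *Msx2*, whereas the orange points run from -2.01 for *Id4* to 2.69 for *Bmp4*, the gene whose bars for the conversions overlap.

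ESC-ASCs and ASCs grew in the same medium and differ in the cells of origin and in sequencing depth. A selection of GOF-GFP-positive colonies is also described for ASCs and not for ESC-ASCs. The cells of origin and this selection cannot be told apart here. Of the 10 genes 9 were lower in ESC-ASCs, against 16.5% of all genes tested. Markers were lower alongside them, 4 of 6 tested for mesoderm and fibroblast, 4 of 7 for trophoblast (2 were higher), 2 of 4 for endoderm and 3 of 7 naive, and their part was not tested. The gap was widest for *Id3*, at 27.0 ± 2.6 against 502.2 ± 135.9 normalized counts per kb (log2 fold change -4.21 ± 0.22, adjusted p = 6.2e-11 by edgeR), and for *Msx2*, at 2.98 ± 0.80 against 36.1 ± 6.5 (-3.57 ± 0.30). *Smad6*, *Msx1*, *Smad7*, *Id1*, *Id2* and *Id4* followed with log2 fold changes of -2.62, -2.59, -2.43, -2.15, -2.10 and -2.06, and *Bambi* came last at -1.45. *Bmp4* was not called, at 43.2 ± 2.4 against 55.6 ± 8.0 (log2 fold change -0.36, 95% interval -0.72 to 0.003, adjusted p = 0.11 by edgeR). Thinning the ESC-ASC counts to the median total of the other samples left 9 genes called. These samples also enter the conversions above, so these values are not independent of them.

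ASCs against ESCs, a comparison that shares its samples with those above, separated the genes differently. Here 6 of the 10 were higher in ASCs, against 18.5% of all genes tested, and 0 were lower, against 7.26%. Of the 7 primed markers 4 were higher and 0 lower, and of the 4 endoderm markers tested 3 were higher and 0 lower. Of the 7 trophoblast markers tested 3 were higher and 1 lower, and 0 of the 7 naive markers were higher or lower. The part of these markers was not tested. Among the 10 genes *Msx2* had the largest log2 fold change, 4.21 ± 0.37, from 2 to 9 counts in ESC samples. *Id3*, at 502.2 against 31.5 ± 11.9 normalized counts per kb, had a log2 fold change of 3.92 ± 0.23, followed by *Id1* (3.33 ± 0.29), *Msx1* (3.09 ± 0.34) and *Bmp4* (3.04 ± 0.24), with *Bambi* at 1.09 ± 0.17. *Id4* was at 71.9 ± 6.4 in ASCs and 69.3 ± 13.5 in ESCs, a log2 fold change of 0.05 with a 95% interval of -0.32 to 0.42. *Smad6*, *Smad7* and *Id2* were higher in ASCs by less than 2-fold, at log2 fold changes of 0.95, 0.82 and 0.57 with adjusted p-values of 0.00049, 2.26e-05 and 0.0058 by edgeR. The 2-fold limit decided 2 of these calls: without the second ASC replicate *Bambi* was at 0.99, and without the first ASC or the second ESC replicate *Smad6* was at 1.08 and 1.05.

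Both groups grown in ABCL, averaged, were set against the mean of the other 4 groups. By this measure 6 of the 10 genes were higher, against 20.2% of all genes tested, namely *Msx2* (log2 difference 3.13 ± 0.25), *Bmp4* (2.52 ± 0.13), *Id4* (2.38 ± 0.15), *Id1* (2.13 ± 0.16), *Msx1* (1.19 ± 0.19) and *Smad6* (1.04 ± 0.12, and 0.98 without the third ASC replicate, under the limit). *Id3* (0.56), *Smad7* (0.39), *Bambi* (0.13) and *Id2* (0.08) were not. All 7 naive markers were higher by this measure too, and of the 7 primed markers 5 were lower and 0 higher. Of the 7 trophoblast markers tested 4 were higher and 0 lower. The part of these markers was not tested. Among the other 4 groups only ESCs had high naive marker sums, so medium and naive state cannot be told apart in this average. The average hides that the ABCL groups were the highest and the lowest of the 6 for *Id2*, *Id3*, *Smad7* and *Bambi*. Of the genes called, only *Bmp4* and *Msx2* had both ABCL means above those of the other 4 groups. For *Msx2*, ESC-ASCs did not differ from ESCs (adjusted p = 0.23 by edgeR). The ESC-ASC mean lay below that of ESCs for *Id4* (17.1 against 69.3 normalized counts per kb) and *Smad6* (14.2 against 44.6). It lay below that of EpiSCs for *Id1* (74.1 against 110.9) and *Msx1* (3.43 against 3.88).

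Over all 6 groups the ASC mean was the highest for each of the 10 genes. The share of all genes with ASC highest was not computed. For 7 of the 10 genes the ASC mean differed from that of the next group by adjusted p alone. In either direction, 50.3% of all genes passed this limit between ASC and ESC and 66.5% between ASC and EpiSC. Between ASC and EpiLC the share was 59.8%, and between ASC and ESC-ASC it was 50.7%. The exceptions were *Id4*, level with ESCs, *Bambi*, at 38.4 ± 5.0 in ASCs and 37.2 ± 3.7 in EpiSCs (adjusted p = 0.85 by edgeR), and *Bmp4*, next to ESC-ASCs. Between the other groups this limit was passed by 39.4% (AFSC and EpiSC), 47.1% (EpiLC and AFSC), 48.6% (EpiLC and EpiSC), 55.3% (ESC and EpiLC), 60.1% (ESC-ASC and ESC), 60.5% (ESC and AFSC), 61.2% (ESC and EpiSC), 64.1% (ESC-ASC and EpiLC), 69% (ESC-ASC and AFSC) and 72.2% (ESC-ASC and EpiSC) of all genes, and it decides below whether neighbours in the order of means differed. Below ASCs the genes went separate ways. EpiSCs came next for *Id1* (110.9 ± 21.7 normalized counts per kb) and *Id3* (126.1 ± 5.7).

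The order of *Id1* ran from ASC over EpiSC, ESC-ASC (74.1 ± 4.2), ESC (33.7 ± 12.9) and AFSC (31.5 ± 6.3) to EpiLC (14.1 ± 6.1), and only ESC and AFSC did not differ as neighbours (adjusted p = 0.91 by edgeR). That of *Id3* put EpiSC, EpiLC (94.7 ± 4.0) and AFSC (93.5 ± 6.2) close together, with no neighbours among them that differed, and ESC and ESC-ASC lowest. *Id2* followed another order, with ESC (142.7 ± 22.0) and EpiSC (127.0 ± 12.7) next after ASC and not different, AFSC (72.5 ± 11.9) and EpiLC (69.1 ± 8.7) not different, and ESC-ASC lowest at 50.3 ± 2.3. *Id4* divided the groups most sharply: ASC and ESC at about 70 normalized counts per kb, ESC-ASC at 17.1 ± 3.0, and EpiSC, AFSC and EpiLC at 4.79 ± 0.66, 3.08 ± 0.52 and 1.93 ± 0.86, from 2 to 8 counts a sample and with no neighbours that differed among these 3. The ends of these 3 did differ, with EpiLC below EpiSC (log2 fold change -1.30, adjusted p = 0.03 by edgeR).

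*Smad6* and *Smad7* both had ESC next after ASC, at 44.6 ± 6.1 and 161.7 ± 6.5 normalized counts per kb. For *Smad6* came EpiSC (19.9 ± 1.8), then ESC-ASC (14.2 ± 1.3), EpiLC (11.4 ± 3.5) and AFSC (8.13 ± 1.58), the last 3 not different as neighbours. ESC-ASC and AFSC, the ends of these 3, did differ (adjusted p = 0.0067 by edgeR). For *Smad7* EpiLC (96.2 ± 9.3) and AFSC (80.6 ± 12.5) did not differ, nor did EpiSC (60.6 ± 1.8) and ESC-ASC (53.4 ± 4.6). *Bambi* formed 2 levels, ASC with EpiSC, and ESC, EpiLC, AFSC and ESC-ASC between 13.9 and 17.9.

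*Msx1* was second in EpiLCs, at 6.24 ± 0.89 normalized counts per kb from 14 to 23 counts a sample, and neighbours below ASC did not differ. Beyond neighbours, EpiLCs were above ESC-ASCs, AFSCs and ESCs (adjusted p of 0.018, 0.029 and 0.0048 by edgeR). *Msx2* was under 3 normalized counts per kb in every group but ASC, and its neighbours below ASC did not differ either. Beyond neighbours, *Msx2* was higher in ESC-ASCs than in AFSCs, EpiLCs and EpiSCs. The log2 fold changes were 2.25, 1.48 and 1.01 (adjusted p of 0.0017, 0.012 and 0.0497 by edgeR). *Bmp4* had an order of its own, with ESC-ASC second, EpiLC (17.8 ± 3.7) and AFSC (12.9 ± 2.7) next and not different, ESC at 6.73 ± 1.77 and EpiSC lowest at 3.26 ± 0.78, from 6 to 9 counts a sample.

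**Figure D3:**
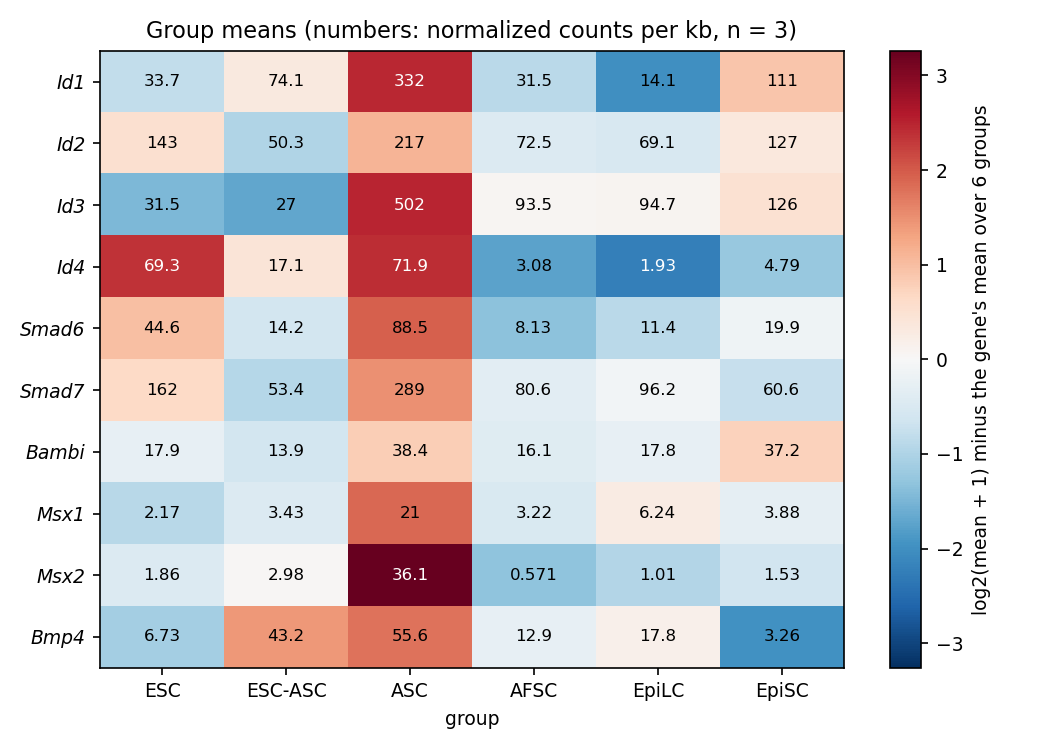
Group means of the 10 genes in normalized counts per kb (printed, n = 3), coloured by log2(mean + 1) minus the gene's own mean over the 6 groups. The ASC column is red throughout, the ESC-ASC column is red clearly for *Bmp4* alone (43.2), and *Id4* is the gene with ESC (69.3) as red as ASC (71.9).

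Among themselves the 10 genes varied in parallel only in part. Over the 18 samples, which share groups of 3 and so are not 18 independent points, Pearson's r of the log2 levels was highest for *Id4* with *Smad6* (0.86), *Id2* with *Smad6* (0.85), *Id3* with *Msx1* (0.84) and *Smad6* with *Smad7* (0.82). *Id3* with *Id4* stood at 0.04, the lowest value among the ID genes. *Bmp4* was the least like the others, between -0.12 with *Bambi* and 0.64 with *Msx2*. The gene most like the mean of *Id1*, *Id2* and *Id3* over the 18 samples, among 10054 genes with a group mean of 50 or more normalized counts per kb, was *Kif4* (r = 0.94), followed by *Igf2* (0.91), *Bag3* (0.91), *Tnfrsf22* (0.87) and *St3gal3* (0.86). *Igf2*, a growth factor gene, had the widest range of these, at 555.4 normalized counts per kb (ASCs), against 1.27 in ESCs and 1.13 in ESC-ASCs.

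The rest of the pathway was taken from lists of ligands, receptors, SMADs, secreted antagonists and further BMP-responsive genes. Of the other BMP ligands 6 of 12 were tested. In ASC against AFSC 2 were higher and 1 lower, with a median log2 fold change of 0.13. Over all genes tested 22.7% were higher and 16.7% lower. In ESC-ASC against ESC 2 were higher and 0 lower, with a median of 1.11 (0.88 with genes at 0 set to their bound). There the shares over all genes tested were 19.3% and 17.1%. *Bmp6* rose in both conversions, by 1.99 and 2.05 on the log2 scale, from 2 to 5 counts a sample in AFSCs and 0 to 6 in ESCs. It stood at 6.68 ± 1.87 normalized counts per kb in ASCs, with ESC-ASCs at 6.96 ± 0.44. *Bmp8a*, known from the extraembryonic ectoderm, rose in the first alone (2.05), *Bmp7* in the second alone (1.58), and the difference between the conversions was itself called for both, at 2.53 and -2.21. *Gdf6* fell in the first (-2.10), to 1.22 ± 0.55 from 5.16 ± 1.51.

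Of the 10 receptor and co-receptor genes 3 were higher and 2 lower in ASC against AFSC, with a median of 0.15. In ESC-ASC against ESC 1 was higher and 3 lower, with a median of -0.40. Over all genes tested 39.4% were called in either direction in the first comparison and 36.4% in the second. *Eng*, a co-receptor for BMP9 and TGF-β, followed *Id2*, *Id4* and *Smad6*: it rose from 9.01 ± 3.43 to 171.1 ± 19.0 normalized counts per kb in the first conversion (log2 fold change 4.24) and fell from 147.3 ± 13.2 to 63.1 ± 5.4 in the second (-1.23). *Acvrl1*, a type I receptor, rose in both, and as ESCs had 0 counts it was at least 3.57-fold higher in ESC-ASCs (3.55 ± 0.72) against a floor of 3 counts per library. *Acvr2b*, a type II receptor, rose in the first (1.72), and *Rgma* (-4.86) and *Acvr1* (-1.18) fell in the second. *Bmpr1a*, the type I receptor most used by BMP4, was called in neither, at 77.4 ± 25.8 in AFSCs, 97.5 ± 34.6 in ASCs, 78.4 ± 9.2 in ESCs and 67.5 ± 3.0 in ESC-ASCs, and *Bmpr2* was called in neither as well. Both were named after their values were seen.

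Of the 15 SMADs and intracellular regulators 2 were higher and 1 lower in the first conversion and 2 higher and 2 lower in the second. The medians were 0.01 and 0.07, and 39.4% and 36.4% of all genes tested were called in either direction. The difference between the conversions was positive for 5 and negative for 3, against 24.4% and 20.8% of all genes tested. *Smad1*, *Smad5* and *Smad4*, also named after their values were seen, were called in neither conversion, though *Smad1* was at -0.92 in the first (adjusted p = 7.4e-06 by edgeR, under 2-fold) and 0.19 in the second, and its difference was called at -1.11. *Smad9*, a BMP-activated SMAD gene like *Smad1* and *Smad5*, rose from at most 1 count a sample in AFSCs to 5.26 ± 0.78 normalized counts per kb in ASCs. *Zfp423*, a DNA-binding partner of SMADs, fell in the first conversion (-1.29) and rose in the second (3.27), from 1 to 9 counts a sample in ESCs. *Skil*, a SMAD corepressor gene, rose in the second alone (2.52), with the difference between the conversions called at -2.47.

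Of the secreted antagonists and modulators, 12 of 17 were tested. In ASC against AFSC 1 was higher and 6 lower, against 16.7% of all genes tested that were lower, with a median log2 fold change of -0.93. In ESC-ASC against ESC 6 were higher and 1 lower, against 19.3% and 17.1% of all genes tested. The median was 1.61 (1.20 with genes at 0 set to their bound). The difference between the conversions was called for 9, all negative, against 20.8% of all genes tested in that direction. *Fst*, which binds activin and BMPs, fell from 172.4 ± 65.7 to 18.1 ± 3.3 normalized counts per kb in the first (-3.28), and *Chrd*, which binds BMPs outside the cell, fell from 34.1 ± 11.0 to 4.415 ± 1.505 (-2.97) and rose from 2.43 ± 0.82 to 7.12 ± 2.61 in the second (1.61). *Cer1* fell in the first (-4.65), to at most 1 count a sample. *Twsg1*, which can help or hinder BMP binding, rose in the second (2.18), to 225.4 ± 6.0, and so did *Nog* (2.08), though at only 2.46 ± 1.49 from 5 to 14 counts. *Fstl1* rose in both, by 1.09 and 1.93.

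Of the further BMP-responsive genes 14 of 16 were tested, among them 4 that also stand on the trophoblast marker list. In ASC against AFSC 10 were higher and 0 lower (median 3.15), against 22.7% and 16.7% of all genes tested. In ESC-ASC against ESC 4 were higher and 6 lower (median -0.99), against 19.3% and 17.1%. The difference between the conversions was positive for 9 and negative for 2, against 24.4% and 20.8%. *Cdx1*, a caudal homeobox gene, had 0 counts in AFSCs and was at least 183-fold higher in ASCs (369.8 ± 111.4 normalized counts per kb), and it fell in the second conversion, from 137.3 ± 3.8 to 45.0 ± 8.5. *Cdx2*, *Gata3* and *Tfap2a*, trophoblast factors, rose in the first by 4.46, 2.75 and 4.13 on the log2 scale. Their AFSC samples held only 3 to 6, 3 to 9 and 1 to 4 counts. In the second they fell by 7.85, 4.68 and 3.58, *Cdx2* to 0 to 4 counts a sample. *Tbx3*, also a naive marker, rose from 0.11 ± 0.10 (0 to 1 counts a sample) to 385.0 ± 24.8 in the first. It fell from 268.5 ± 2.9 to 130.0 ± 3.9 in the second. *Gata2* and *Dusp9*, a MAPK phosphatase gene, rose in both, *Gata2* by 5.95 and 2.78 and *Dusp9* by 1.84 and 1.31. The first rise of *Gata2* was from 1 to 4 counts a sample in AFSCs. Of the 10 genes of this list called in each conversion, 7 were called in both, 2 in the same and 5 in opposite directions. Over all genes tested 6.23% were higher in each conversion, 3.3% lower in each and 9.44% opposite.

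**Figure D4:**
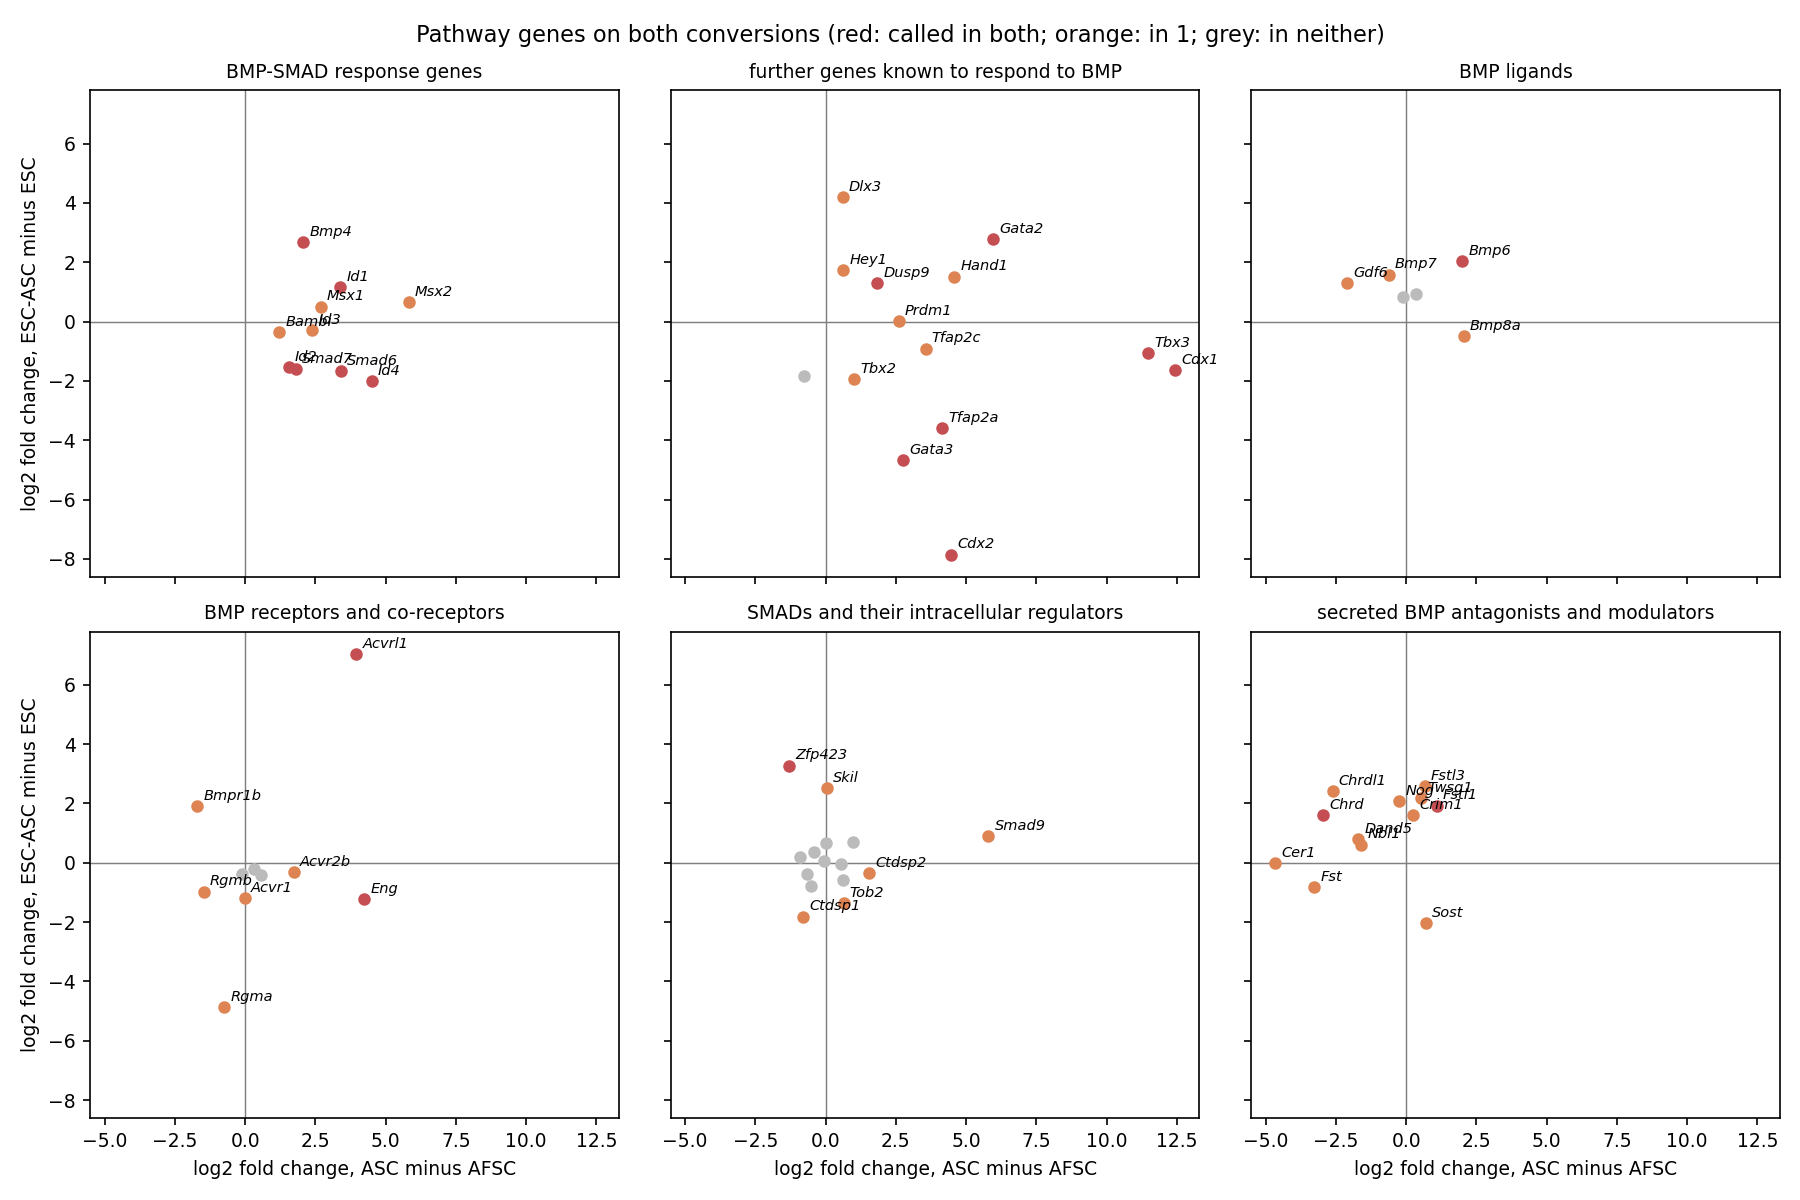
Log2 fold change of ASC minus AFSC (x axis) and of ESC-ASC minus ESC (y axis) for the tested genes of 6 lists, red where called in both conversions, orange in 1 and grey in neither. The 10 response genes all lie right of 0, and of the antagonists *Fstl1* is the only one called higher on the x axis (1.09). Fitted values against a group with 0 counts (*Cdx1*, *Acvrl1*) depend on the prior count and are not measured sizes. Those against a few counts a sample, such as *Gata2* and *Tbx3* in AFSCs, are uncertain in size.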

How the data were processed

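The deposited tables give unnormalized counts per gene. The authors mapped read pairs from stranded polyA libraries to GRCm38 (TopHat2) and counted them over Ensembl release 86 exons (featureCounts 1.5.0-p1). Fragments that mapped to several places or genes were counted at each, both ends had to map, and strand was not used. The labels set the groups, since the names of the tables call AFSCs "ASC". No sample was left out.

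Here 16901 genes with 10 or more counts in 3 or more samples were tested in R 4.3.3 with edgeR 4.0.16 (TMM, robust quasi-likelihood fit over the 6 groups, common dispersion 0.0283). A gene was called at an adjusted p below 0.05 and a log2 fold change beyond 1. Levels are counts scaled with the size factors of DESeq2 1.42.0 and by exon length in kb, with a pseudocount of 1 where logged. Of the gene IDs, 35514 matched a symbol. The script was tested on simulated data.

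The 10 genes, the pathway lists and the marker lists were chosen with earlier results of these data known. Named were all 10 genes, from each list the genes called in both conversions and up to 3 more with the largest change in either, though not all are printed, and the 5 genes most like *Id1* to *Id3*. Replicate numbers were not taken to pair samples, since 20 of 45 same-number pairs had an r of deviations over 0.1 and not all (-0.226 to 0.511, mean 0.094), although the first replicates of 4 groups stood apart. Alternatives were DESeq2, RLE scaling, other count filters, a replicate block, fits of the compared groups alone, thinned ESC-ASC counts and leaving out samples. The alternative without the 4 first replicates was chosen after seeing the data. Intervals of counts cover counting error only. DNA methylation and embryo data were not analysed here.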

Additional observations from a re-analysis of the deposited data

Results flagged for a closer look

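For 9 of the 10 genes the change from AFSC to ASC differed from the change from ESC to ESC-ASC in a test of that difference (edgeR, adjusted over all genes), and *Bmp4* was the exception. Differences are of log2 fold changes, ASC against AFSC minus ESC-ASC against ESC. For *Id2*, *Id4*, *Smad6* and *Smad7* the conversions went in called opposite directions, and the differences were 3.08, 6.51, 5.07 and 3.43. For *Id1*, which rose in both, the difference was 2.20. For *Id3*, *Bambi*, *Msx1* and *Msx2*, called in the first conversion alone, the differences were 2.69, 1.58, 2.19 and 5.18, and those of *Msx1* and *Msx2* rest on 1 to 10 counts a sample in AFSCs and ESCs. All 9 kept their call under every alternative that could test the gene.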

How the results depend on the processing

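The number of the 10 genes called stayed at 10 for ASC against AFSC, 9 for the difference between the conversions and 9 for ESC-ASC against ASC under 25 alternatives each, and lay between 5 and 6 for ESC-ASC against ESC, 5 and 7 for ASC against ESC and 5 and 6 for the ABCL groups against the rest, in each case also when 1 replicate was left out at a time. The remaining alternative, 10 or more counts in every sample, removed *Bmp4*, *Id4*, *Msx1* and *Msx2* from the tests, so that 6 genes were called for ASC against AFSC and 2 for the ABCL groups. It also lowered the genes called over the whole table, from 6659 to 2667 for ASC against AFSC, 6153 to 2752 for ESC-ASC against ESC, 7632 to 3910 for the difference, 4147 to 1515 for ESC-ASC against ASC, 4356 to 1507 for ASC against ESC and 5322 to 1876 for the ABCL groups. *Id4* in ASC against ESC, not called, changed sign to -0.029 without ASC replicate 3 and -0.070 without ESC replicate 3, within a range of -0.070 to 0.183 over the samples left out. *Smad6* in ASC against ESC passed the 2-fold limit in 5 alternatives (1.02 to 1.08 on the log2 scale). A replicate block left every count of the 10 genes as it was, for example 10 for ASC against AFSC and 6 for ESC-ASC against ESC. With 1 to 9 counts a sample for *Msx1* and *Msx2* in ESCs, depth limits what could be seen there.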

Other observations

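The ID proteins act by binding E-proteins, and the genes of their 3 partners, *Tcf3*, *Tcf4* and *Tcf12*, were called in neither conversion (they were named after their values were seen). *Tcf3* was the most abundant, at 392.8 ± 55.7 normalized counts per kb in ASCs, 462.8 ± 89.5 in AFSCs, 372.6 ± 18.7 in ESC-ASCs and 620.1 ± 61.7 in ESCs (n = 3 each). *Tcf12* was at 20.9 ± 3.5 in ASCs and 37.0 ± 3.3 in AFSCs, a log2 fold change of -0.85, and *Tcf4* at 9.40 ± 3.30 and 5.64 ± 1.70, a log2 fold change of 0.72. Both changes passed the limit of adjusted p (0.00015 and 0.0058 by edgeR) and stayed under 2-fold. In ESC-ASC against ESC the log2 fold changes were -0.75 for *Tcf3*, -0.53 for *Tcf12* and -0.32 for *Tcf4*, with adjusted p-values of 0.00012, 0.0081 and 0.17 by edgeR. The difference between the conversions was called for *Tcf4* (1.04).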
